A study of Mus musculus with 8 samples.

Results

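The VEGF ligands Vegfa, Vegfb, Vegfc and Pgf, the receptors Kdr and Flt1 and the coreceptors Nrp1 and Nrp2 were examined in the RNA of tumor endothelial cells (TECs). These 8 genes were chosen by symbol, with earlier results of these data known. All 8 were found among the 20057 genes of the table. C57BL/6 male mice of 8 weeks had received 250000 B16-F10 melanoma cells under the skin, and then 2 peritumoral injections of 30 µg antibody on days 13 and 16. The antibody was the agonistic CD40 mAb FGK4.5 for 4 tumors and the rat IgG2a isotype control 2A3 for the other 4. All 8 tumors were of the same transplanted line, so that no group without a tumor was compared. TECs were sorted as CD45- CD31+ cells 1 day after the last injection, with about 100000 cells collected and 10 ng of RNA entering each library. The paper's methods give this day, while its supplement names 1 and 4 days for sorted cells, without saying which were sequenced. Each tumor gave 1 library, named below by its label, with 5N, 6L, 6R and 10N treated with agonistic CD40 mAb and 5L, 7N, 8N and 9L treated with the isotype control. Each tumor was taken to come from its own mouse. The labels 6L and 6R, both treated, share a number, and no label says what it marks.

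VEGF-A is released by hypoxic tumor cells and binds VEGFR-2 (Kdr), the main receptor for endothelial proliferation, migration and permeability. VEGFR-1 (Flt1) binds VEGF-A, VEGF-B and placental growth factor (Pgf) and can act as a decoy, while VEGF-C acts mainly on VEGFR-3 in lymphatic endothelium. Neuropilins lack a kinase of their own and present ligands to the receptors: Nrp1 to VEGFR-2 in blood vessels, and Nrp2 mainly to VEGFR-3. Tumor vessels are built and kept leaky largely through this pathway, and the question asked of the data was whether its RNA differed after CD40 agonism.

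No promoter measurement was made in these cells, but 4 of the genes carry the results below, so the DNA around their start sites is printed for reference. The windows come from RefSeq (GRCm38.p6) and run 5′ to 3′ on the gene's strand, from 250 bases before the start site to 50 after it. Capitals mark the core letters of the hypoxia response element, which are ACGTG or GCGTG on either strand, so that CACGT and CACGC count too. The windows lie at chr5:75978406-75978705 on the minus strand for Kdr, chr5:147725962-147726261 on the minus strand for Flt1, chr8:128358823-128359122 on the plus strand for Nrp1, and chr17:46032328-46032627 on the minus strand for Vegfa.
Kdr: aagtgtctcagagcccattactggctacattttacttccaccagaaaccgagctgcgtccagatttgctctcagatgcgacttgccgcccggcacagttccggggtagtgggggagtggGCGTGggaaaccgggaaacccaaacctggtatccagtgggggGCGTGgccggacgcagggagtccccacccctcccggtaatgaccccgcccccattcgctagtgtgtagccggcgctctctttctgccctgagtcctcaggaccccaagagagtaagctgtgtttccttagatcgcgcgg
Flt1: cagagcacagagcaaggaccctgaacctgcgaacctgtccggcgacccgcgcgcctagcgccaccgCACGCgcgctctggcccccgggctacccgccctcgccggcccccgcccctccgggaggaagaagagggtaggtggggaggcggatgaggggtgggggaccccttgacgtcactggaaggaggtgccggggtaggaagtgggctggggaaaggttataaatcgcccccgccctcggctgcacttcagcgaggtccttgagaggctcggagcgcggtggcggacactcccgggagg
Nrp1: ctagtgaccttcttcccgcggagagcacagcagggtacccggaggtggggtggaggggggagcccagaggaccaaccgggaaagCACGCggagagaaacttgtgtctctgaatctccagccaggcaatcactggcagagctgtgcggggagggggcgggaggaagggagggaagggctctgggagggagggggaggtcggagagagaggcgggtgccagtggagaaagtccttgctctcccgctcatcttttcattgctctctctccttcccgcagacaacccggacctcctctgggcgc
Vegfa: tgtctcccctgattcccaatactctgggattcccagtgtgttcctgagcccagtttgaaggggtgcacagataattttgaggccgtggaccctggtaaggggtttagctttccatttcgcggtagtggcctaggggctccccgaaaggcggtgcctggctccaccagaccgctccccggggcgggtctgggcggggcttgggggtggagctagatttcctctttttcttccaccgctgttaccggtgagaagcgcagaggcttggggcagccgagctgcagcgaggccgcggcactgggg

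All 8 genes had a RefSeq window, and Vegfa and Pgf had 2 each, of which only 1 was read. Of the 8 windows read, 6 held the hypoxia core, against 43.8% of the 32851 promoter windows of the same length. Kdr, Vegfb and Nrp2 held 2 matches each, Flt1, Nrp1 and Pgf 1 each. These letters were not in the windows read for Vegfa and Vegfc. The GC box GGGCGG, searched on both strands, was in all 8 windows and in 35.7% of all windows. GC content of the 8 windows was between 60.7% and 75.3%. That of all windows was not computed, so the shares given here are not matched for it. The letters CCGGAA are a form of the site of ETS factors, a family that includes endothelial regulators. They were in the Kdr window only, against 14.9% of all windows, and other forms of the site were not searched. A match is a description of letters and not a measured site.

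The values are normalized reads, that is, read counts per gene divided by a size factor for each library. Reads on genes ranged from 12512772 to 64938728 per library with agonistic CD40 mAb and from 2971689 to 35583141 with the isotype control, and the 3 shallowest libraries (5L, 7N and 8N) were all isotype controls. The fewest reads of any of the 8 genes were 55 for Vegfb in 7N. The blood endothelial markers Cdh5, Pecam1 and Eng were abundant, at 9535 to 14039, 7671 to 12526 and 5141 to 9916 normalized reads, and the sum of the 16 markers of this kind was 50982 to 71446 with agonistic CD40 mAb and 42937 to 60417 with the isotype control. RNA of other cells was present too. The 10 melanoma markers, led by Tyrp1, Dct and Gpnmb, summed to 47853 to 76742 and 48792 to 122820, and the 14 fibroblast and mural cell markers, led by Col3a1, Col1a1 and Col1a2, to 144181 to 267905 and 99658 to 254677. Leukocyte RNA was low, with the 8 leukocyte markers between 355 and 466 and between 213 and 488, and Ptprc (CD45) at a mean of 9.99 and 2.52, below the expression limit of 10 for testing in both groups. In such bulk libraries, fewer cells of a type and less RNA per cell cannot be told apart, and ligand RNA cannot be assigned to a cell type.

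None of the 8 genes reached the threshold, a mean at least 1.5 times that of the other group at a limma p, before adjustment, of 0.05 or less. Over the 12969 genes tested, 197 (1.52%) passed it, 166 of them higher (1.28%) and 31 lower (0.239%) with agonistic CD40 mAb. The lower count moved most with the setting, from 13 with an expression limit of 50 to 123 without library 5L. Only 2 genes (0.0154%) had a limma adjusted p under 0.05, neither among the 8. No group pair was free of overlap in the 8 genes, against 204 genes (1.57%) overall. With 1.52% of all genes past the threshold, 0 of 8 is a share near the background. The 8 log2 fold changes, each the difference of the group means of log2(value + 1), lay between -0.27 and 0.24 with a median of 0.09, where the median over all genes tested was 0.005 and the middle 50% spanned -0.09 to 0.12. In sign, 5 were positive and 3 negative, and the adjusted p was 0.9997 for each (limma, Benjamini-Hochberg over all genes tested).

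**Figure D1:**
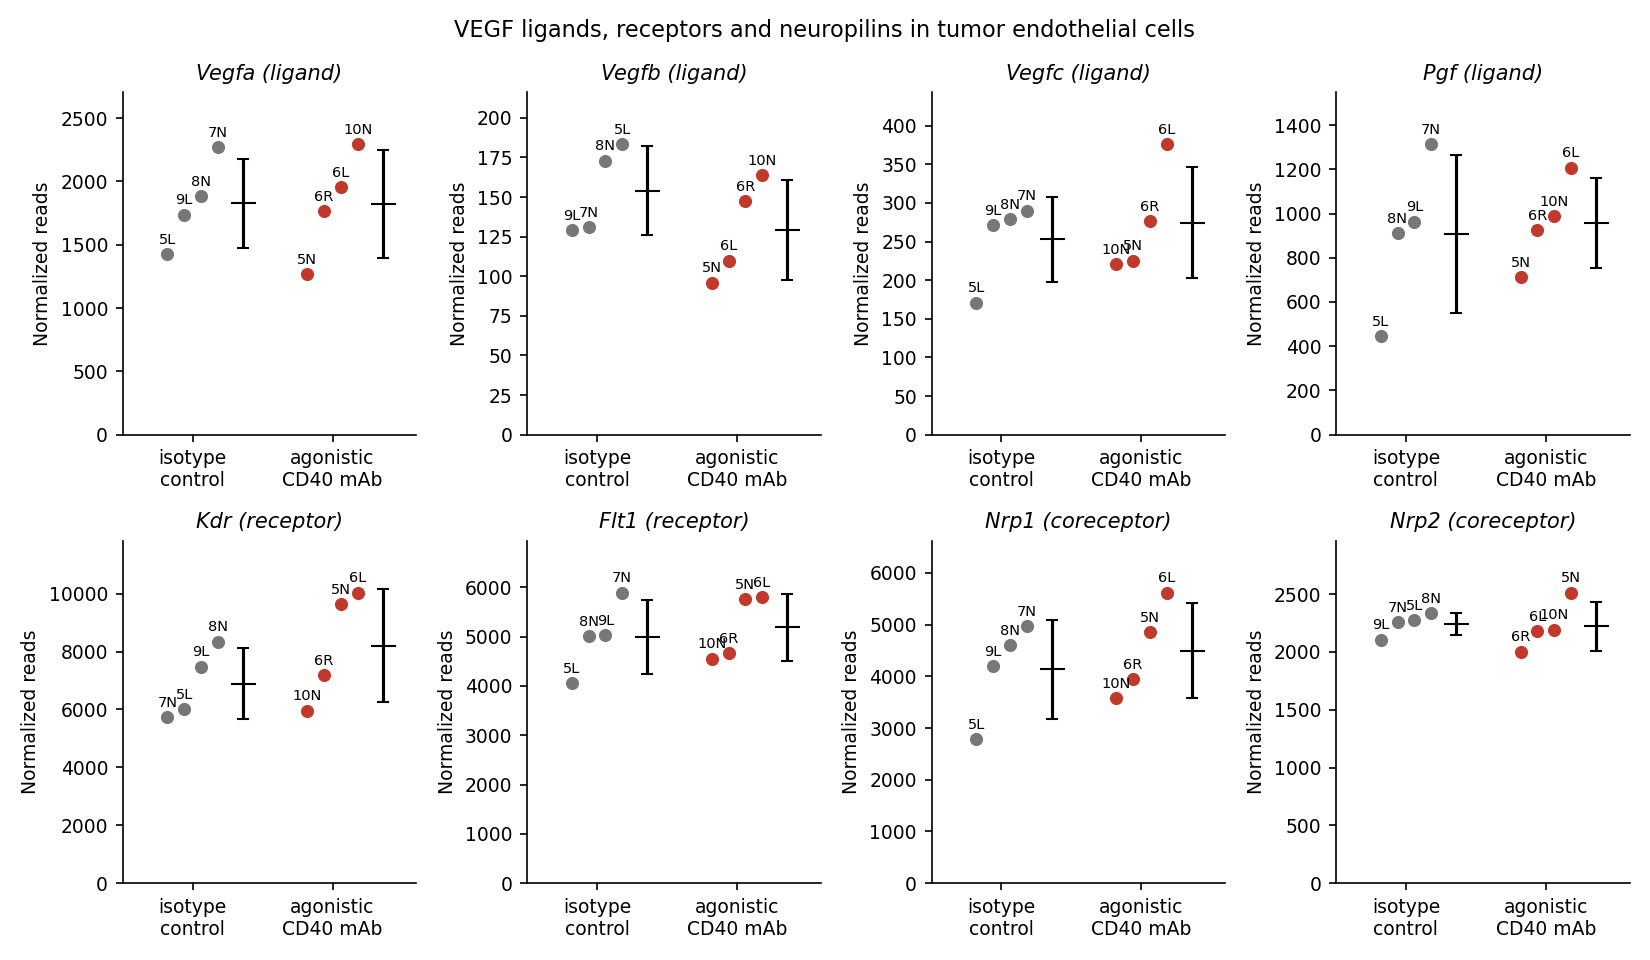
Normalized reads (y axis, linear from 0) of each gene in the 8 libraries, labelled by library name, with gray points for isotype control and red points for agonistic CD40 mAb. Black bars give the mean and SD of 4 libraries, and the groups overlap in all 8 panels.

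Among the ligands, Vegfa was the most abundant, and its group means were nearly equal. Vegfa (chr17:46016993-46032369, mm10, minus strand) was at 1266 normalized reads in 5N, 1955 in 6L, 1767 in 6R and 2294 in 10N with agonistic CD40 mAb. With the isotype control it was at 1425 in 5L, 2272 in 7N, 1884 in 8N and 1737 in 9L. The highest and the lowest library both belonged to the treated group, at 10N and 5N, and the control values lay between them. The means were 1820 ± 429 and 1829 ± 352 (SD, n = 4 each), and the log2 fold change was -0.02 with a 95% interval of -0.45 to 0.41 (limma).

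Vegfb, whose product binds VEGFR-1 but not VEGFR-2, had the fewest normalized reads of the ligands, although not per kb of its longest transcript, where Vegfc was as low. This gene (chr19:6982473-6987651, minus strand) was at 95.9 in 5N, 110 in 6L, 147 in 6R and 164 in 10N. Control values were 183 in 5L, 131 in 7N, 173 in 8N and 129 in 9L. Of the treated libraries, 3 were below the control mean, and the ranges overlapped. The ratio of means was 0.839, with a log2 fold change of -0.27 ± 0.21 (SE), the most negative of the 8, and its interval of -0.74 to 0.21 held 0. It also had the lowest p of the 8, 0.240 by limma and 0.257 by a two-sided exact permutation test, which can reach 0.0286 at the lowest with 4 against 4 libraries.

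For Vegfc (chr8:54077606-54187096, plus strand), the lymphangiogenic ligand, values were 225 in 5N, 376 in 6L, 276 in 6R and 221 in 10N. They were 171 in 5L, 290 in 7N, 279 in 8N and 272 in 9L. Library 5L stood below the other controls, which lay close together, and 6L stood highest. The log2 fold change was 0.11 ± 0.22 (SE), and it was -0.06 without 5L and -0.05 without 6L (limma).

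Pgf (chr12:85166635-85177790, minus strand), the placental growth factor that binds VEGFR-1, varied most between libraries of all 8 genes. It was at 711 in 5N, 1207 in 6L, 925 in 6R and 989 in 10N, against 445 in 5L, 1313 in 7N, 912 in 8N and 963 in 9L. Both extremes were controls, with 7N 2.95 times above 5L. The log2 fold change was 0.15 ± 0.29 (SE), and without 5L it was -0.16 (limma). Its 95% interval was the widest of the 8 and reached a fold of 1.73.

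Of the receptors, Kdr had the largest positive difference, and it did not exceed the spread between libraries. Kdr (chr5:75932827-75978458, minus strand) was at 9646 in 5N, 10031 in 6L, 7174 in 6R and 5957 in 10N. In the controls it was at 6007 in 5L, 5736 in 7N, 8344 in 8N and 7474 in 9L. Treated libraries 5N and 6L lay above every control, while 6R and 10N lay within the control range. The means were 8202 ± 1960 and 6890 ± 1234 (SD, n = 4 each), and the log2 fold change was 0.24 with an interval of -0.20 to 0.67. The p was 0.255 by limma and 0.343 by the exact permutation test, and leaving out single libraries gave values from 0.13 to 0.38. Scaled by the blood endothelial markers, which moved the median of all genes to -0.15, the log2 fold change of Kdr was 0.08, and with library quality weights it turned to -0.04.

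Flt1 (chr5:147561604-147726011, minus strand) was at 5758 in 5N, 5804 in 6L, 4660 in 6R and 4553 in 10N. Control values were 4057 in 5L, 5888 in 7N, 5004 in 8N and 5026 in 9L. Again 5N and 6L were the higher treated libraries, but here the control 7N was above them. The log2 fold change was 0.06 with an interval of -0.27 to 0.39 (limma), which holds folds between 0.831 and 1.31. Soluble and membrane-bound VEGFR-1 are made from the same gene, and values per gene do not separate them, nor the splice forms of Vegfa.

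The coreceptor Nrp1 (chr8:128358604-128503363, plus strand, with Mir1903 inside an exon) was at 4855 in 5N, 5617 in 6L, 3949 in 6R and 3579 in 10N. It was at 2786 in 5L, 4965 in 7N, 4600 in 8N and 4195 in 9L. Library 5L was lowest by a wide margin, and 6L highest. The log2 fold change was 0.13 ± 0.20 (SE), and without 5L it was -0.05 (limma).

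Nrp2 (chr1:62703285-62818695, plus strand), the neuropilin of lymphatic and venous endothelium, was the steadiest of the 8. Its values were 2511 in 5N, 2179 in 6L, 2003 in 6R and 2193 in 10N, and 2273 in 5L, 2255 in 7N, 2333 in 8N and 2105 in 9L. All 4 controls fell inside the range of the treated libraries, and the highest library was only 1.25 times the lowest. The coefficient of variation over 8 libraries was 6.84%, against 13.2% for Flt1, the next steadiest, and 29.0% for Pgf. Among the 9251 tested genes with a mean of at least 100 normalized reads, the SD of Nrp2 on the log2 scale was at percentile 3.97, that of Flt1 at 37.4, those of the other members between 70.5 and 77.2, and that of Pgf at 91.8. With so little spread, its log2 fold change of -0.02 had the narrowest interval of the 8, -0.26 to 0.22 (limma), or folds of 0.837 to 1.17.

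**Figure D2:**
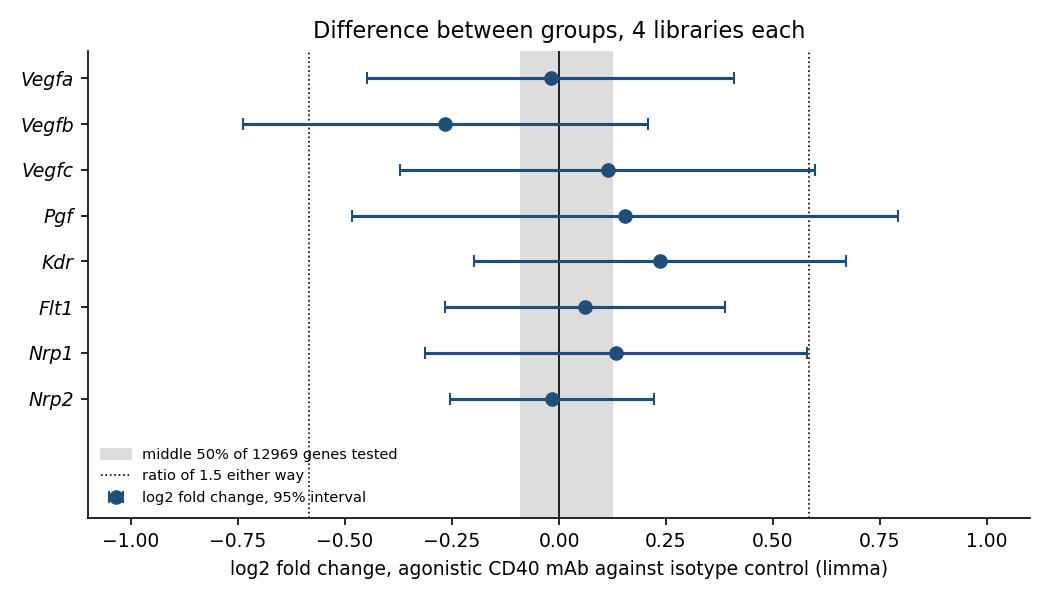
Points give the log2 fold change of each gene, agonistic CD40 mAb against isotype control, and bars the 95% interval (limma, 4 libraries each); the gray band spans the middle 50% of the 12969 genes tested and dotted lines mark a ratio of 1.5 either way. Every interval holds 0, the narrowest being that of Nrp2 and the widest that of Pgf.

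A fold of 1.5 or more in either direction lay outside the intervals of Vegfa, Flt1, Nrp1 and Nrp2. For Vegfb the interval reached down to a fold of 0.599, and for Vegfc, Pgf and Kdr it reached up to 1.51, 1.73 and 1.59, so that changes up to that size lay within the intervals.

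Levels were then compared between genes per kb of merged exon length. Kdr was highest at 836 ± 185 normalized reads per kb (SD, n = 8), and above Nrp1 in 8 of 8 libraries. Nrp1 at 441 ± 90.7, Vegfa at 426 ± 84.8 and Flt1 at 377 ± 49.6 followed, and the order of Nrp1 and Vegfa was met in only 4 of 8 libraries, so that on this scale these neighbours did not differ beyond their spread. Vegfa was above Flt1 in 7 of 8 libraries, Flt1 above Pgf (321 ± 93.2) in 6, and Pgf above Nrp2 (188 ± 12.9) in 7. Vegfc at 108 ± 24.7 was below Nrp2 in 8 of 8 libraries, and Vegfb, at 88.2 ± 19.2, was below Vegfc in 6 of 8. Dividing by the longest transcript instead kept Kdr first, at 1274 per kb, but put Nrp1 close behind it at 1185 and Flt1, at 739, above Vegfa, at 529. The merged exons were 13504 bases for Flt1 and 9785 for Nrp1, against 6895 and 3645 in the longest transcript, and the place of Vegfa depended on the length used. Per kb of the longest transcript Nrp1 was above Vegfa in 8 of 8 libraries and Vegfa above Flt1 in only 1 of 8. The last place also turned, since Vegfb was then at 111 and Vegfc at 108.

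**Figure D3:**
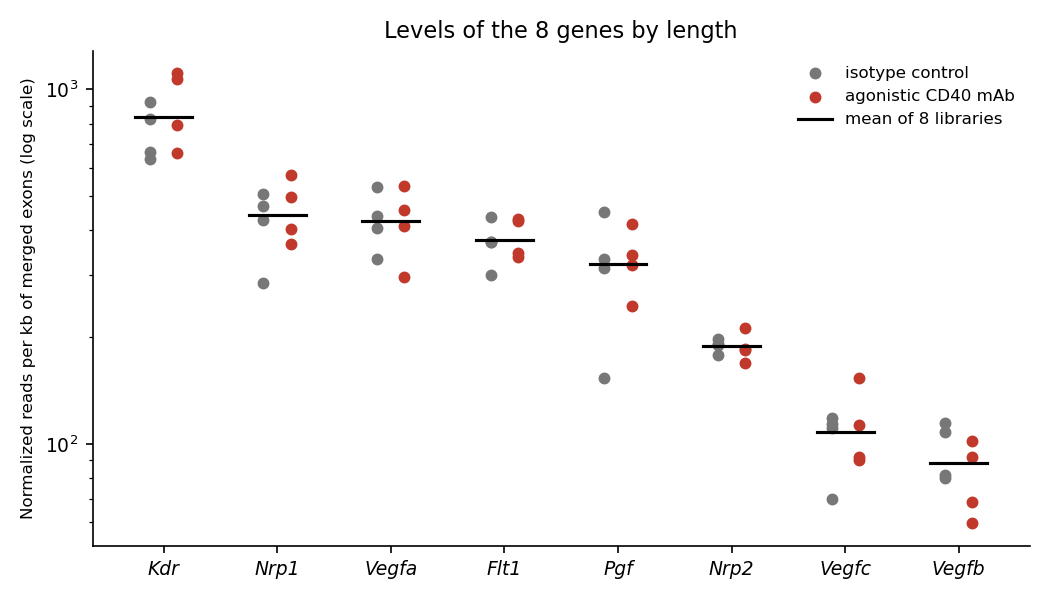
Normalized reads per kb of merged exons (y axis, log scale) of the 8 genes in 4 isotype control (gray) and 4 agonistic CD40 mAb (red) libraries, ordered by the mean of 8 libraries (black line). Kdr is highest at a mean of 836 and Vegfb lowest at 88.2, with Nrp1, Vegfa, Flt1 and Pgf overlapping between them.

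Ratios within a library do not depend on its scaling, and 12 were compared: receptors, coreceptors and ligands with each other, and with Cdh5 (VE-cadherin), the junction protein of endothelial cells. None passed a test between the groups, with exact permutation p from 0.343 to 0.971 and adjusted p of 0.891 or more over the 12 pairs, and all ranges overlapped. The ratio Flt1/Kdr was between 0.579 and 0.764 with agonistic CD40 mAb, and it was 0.675 in 5L, 1.03 in 7N, 0.600 in 8N and 0.673 in 9L. The control 7N was the only library with a ratio above 1 in reads, which are not per length. Per kb of merged exons its Flt1, at 436, was below its Kdr, at 635. Without 7N the difference of the mean log2 ratios was -0.01 instead of -0.18. The same library was highest for Nrp1/Kdr, at 0.866 against 0.464 to 0.601 in the other 7. It was at 0.396 for Vegfa/Kdr, close to 10N at 0.385, while 5N was lowest at 0.131. For Nrp2/Nrp1 it was 5L that stood out, at 0.816, against 0.388 to 0.613 in the other 7 libraries. Measured against Cdh5, Kdr was between 0.552 and 0.818 with agonistic CD40 mAb and between 0.594 and 0.651 in the controls. The difference of the mean log2 ratio was 0.13 (exact permutation p = 0.343), and it was 0.04 without 5N and 0.23 without 10N. Libraries 7N and 5L were the shallowest with 3446781 and 2971689 reads on genes, and the part of depth in these ratios was not tested.

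**Figure D4:**
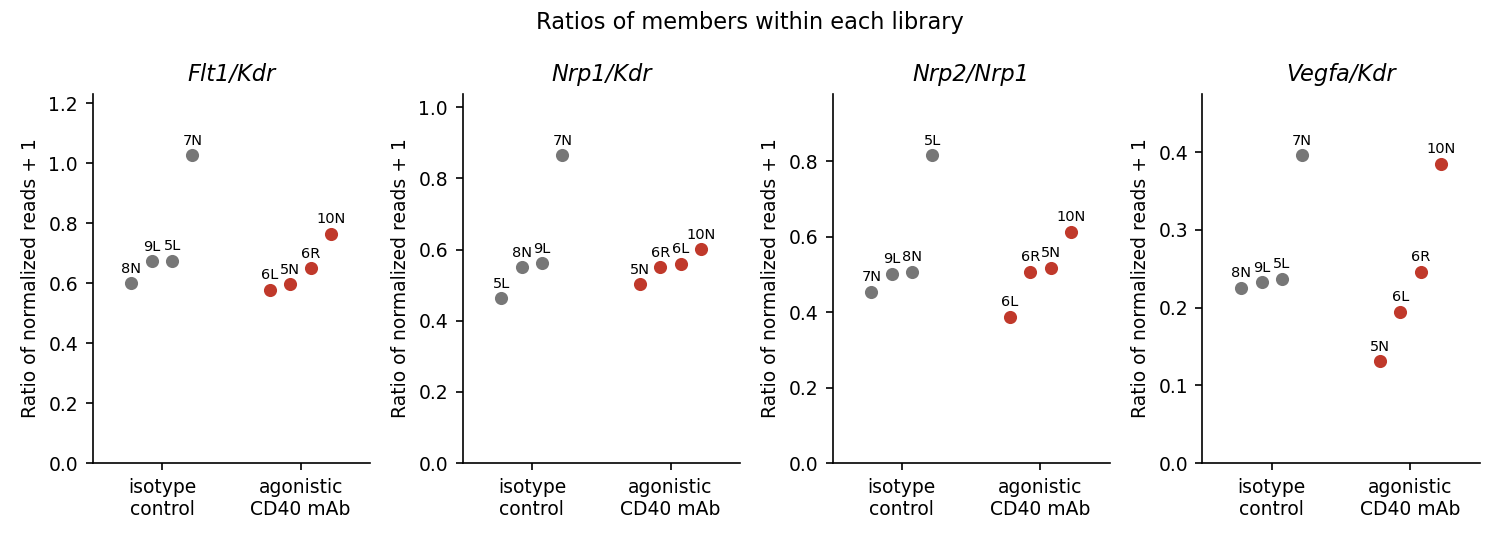
Ratio of normalized reads (y axis, linear from 0) within each library for 4 pairs of members, labelled by library name, in isotype control (gray) and agonistic CD40 mAb (red). The plotted ratios hold no added 1, although the axis title names it. The control 7N is highest for Flt1/Kdr (1.03), Nrp1/Kdr (0.866) and Vegfa/Kdr (0.396), and 5L for Nrp2/Nrp1 (0.816).

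The variation between libraries was shared by some members and not by others. Over 8 libraries and 44 pairs, made of the members with each other and with Cdh5 and Pecam1, only 2 had an adjusted p under 0.05. Flt1 and Nrp1 varied together (r = 0.95, rho = 0.95, exact permutation p = 0.000149, adjusted p = 0.00437), with r = 0.93 without the 2 libraries farthest from the median of Flt1. Kdr varied with Pecam1, the CD31 antigen used in the sort (r = 0.98, rho = 0.93, exact permutation p = 0.000198, adjusted p = 0.00437), with r = 0.95 without the 2 farthest. Removing the group means left both at 0.95 and 0.98. Between the receptors Kdr and Flt1 r was 0.53 (adjusted p = 0.390 over the exact permutation tests). Nrp2 had r between -0.44 and 0.32 with the other members. Among the ligands, Vegfc and Pgf had r = 0.85 (adjusted exact permutation p = 0.102), which was 0.58 without the 2 libraries farthest from the median of Vegfc, and Vegfa and Pgf had r = 0.78 (adjusted p = 0.120), which was 0.57 without the 2 farthest from the median of Vegfa. Vegfb was the only member with a negative r to Flt1, -0.83 (adjusted exact permutation p = 0.102).

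The levels of Flt1 and Nrp1 also moved with the melanoma markers. The 10 markers summed to 52200.3 in 5N, 47853 in 6L, 76742 in 6R and 74652 in 10N, and to 122820 in 5L, 48792 in 7N, 62380 in 8N and 55960 in 9L. Flt1 and Nrp1 were lowest in 5L, where this sum was highest, and 6R and 10N followed for both genes. Of 48 relations of members with 5 marker sums and with depth, 2 had an adjusted p under 0.05. These were Flt1 (r = -0.95, rho = -0.95, exact permutation p = 0.000174, adjusted p = 0.00833) and Nrp1 (r = -0.96, rho = -0.95, exact permutation p = 0.000670, adjusted p = 0.0161), both with this sum. Without the 2 libraries farthest from each gene's median they were -0.94 and -0.87. For Kdr the r with the melanoma markers was -0.52 (adjusted p = 0.387), for Vegfa -0.28 (adjusted p = 0.651) and for Nrp2 -0.16 (adjusted p = 0.812; exact permutation tests), while Vegfb had r = 0.76 (adjusted p = 0.174). Pgf and Vegfc had r = -0.79 and -0.78 with these markers (adjusted exact permutation p = 0.176 and 0.174), which were -0.08 and -0.21 without the 2 libraries farthest from each gene's median. Kdr had r = 0.85 with the sum of the blood endothelial markers (adjusted p = 0.138) and 0.67 with reads on genes (adjusted p = 0.244). The part of melanoma RNA in the levels of Flt1 and Nrp1 was not tested. All values of a library share its size factor.

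**Figure D5:**
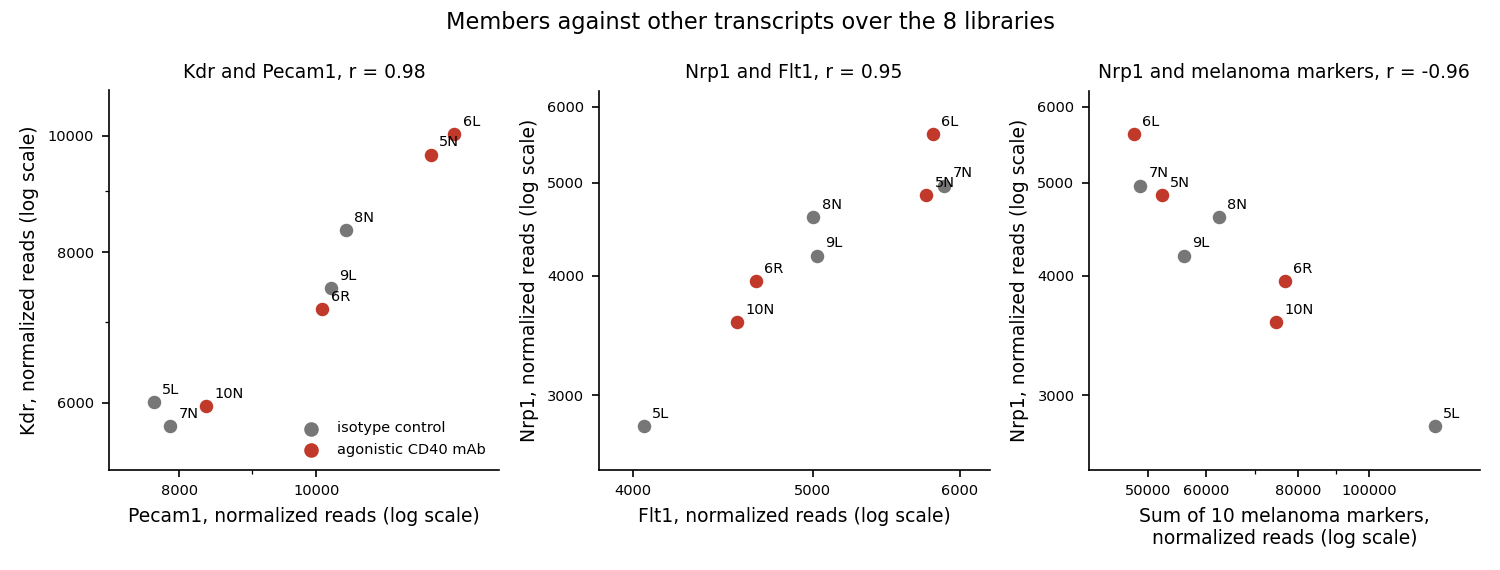
Normalized reads on log axes in the 8 libraries, labelled by library name, in isotype control (gray) and agonistic CD40 mAb (red): Kdr against Pecam1, Nrp1 against Flt1, and Nrp1 against the sum of 10 melanoma markers. Points of both groups lie mixed along the trend of each panel (r = 0.98, 0.95 and -0.96 on the log2 scale), and 5L lies at the end with the most melanoma marker RNA.

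As a description, the genes most like 4 of the members were taken from 9243 tested genes with a mean of at least 100 normalized reads, by Pearson r of the log2 values over the 8 libraries. For Kdr these were Dkk2 (r = 0.98), Pecam1 (0.98) and Aplp2 (0.97). For Flt1 they were Rasal2 (0.98), Hook3 (0.97) and Papd4 (0.97), and for Nrp1 Akap13, Lyn and Arhgap29 (each 0.99). Vegfa was most like Slc2a1 (0.96), the glucose transporter GLUT1 known for its rise in hypoxia, followed by Qpctl and Prdx5 (each 0.95). The log2 fold changes of these genes lay between -0.02 and 0.42. These r are the highest of 9243 candidates each and carry no test.

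The rest of the pathway was read from lists of genes around these 8. Of the 2 other members of the VEGF family that were tested, Flt4 (VEGFR-3) had means of 1962 ± 460 and 1724 ± 424 and Figf (VEGF-D) 254 ± 143 and 181 ± 87.2 (SD, n = 4 each, agonistic CD40 mAb first), and neither passed the threshold. Lymphatic endothelial markers, which include Flt4, summed to 3456 to 6338 with agonistic CD40 mAb and 2207 to 4521 with the isotype control, with Pdpn and Lyve1 the most abundant after Flt4. All 7 had positive log2 fold changes, as had 15 of the 16 blood endothelial markers, while all 10 melanoma markers were negative, beside 51.3% positive over all genes tested. The median log2 fold change was 0.86 for the lymphatic markers, with Lyve1 at 0.94 and Pdpn at 0.09, against 0.16 for the blood endothelial and -0.08 for the melanoma markers. None of these markers passed the threshold, although 4 lymphatic markers did without 8N. Over all genes tested, 219 were then past it higher and 33 lower, against 166 and 31 with all libraries. The marker shifts rested in part on single libraries. Without 5L the medians were 0.43 for the lymphatic, 0.04 for the blood endothelial and 0.19 for the melanoma markers, of which 9 of 10 were then positive, and without 6L they were 0.51, 0.03 and 0.01. Over all libraries left out in turn they ranged from 0.43 to 1.25, from 0.03 to 0.26 and from -0.31 to 0.19. The 14 fibroblast and mural cell markers went both ways, with 6 positive, 8 negative and a median of -0.07. Their median was -0.36 without 5L, with 13 negative, and 0.09 without 8N. Of these 14, 0 passed the threshold with all libraries, 3 without 5L and 1 without 7N. Over all genes tested, 161 were past it higher and 123 lower without 5L, and 216 and 31 without 7N. None of the 12 semaphorins and plexins, the other ligands and partners of neuropilins, passed it either, with Plxnd1 at a mean of 8282 and 8166 and Plxna1 at 2361 and 2736. The nearest was Sema3g, named after its values were seen, at 388 and 265, a ratio of 1.46 with a limma p of 0.0307 (adjusted p = 0.9997).

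Downstream of the receptors, 41 of 43 signaling genes were tested and 0 passed the threshold. Their median log2 fold change was 0.01, and the most abundant were Iqgap1, a scaffold that binds VEGFR-2, at 4970 and 5215, and Rac1, a GTPase of cell migration, at 4128 and 4240. None of the 24 VEGF-induced endothelial genes passed it (median 0.11), with Igfbp3 at 28066 and 26903 and Plvap, the diaphragm protein of leaky capillaries, at 6523 and 5889. Of 10 hypoxia regulators, 9 were tested, 0 passed and the median was -0.04. Hif1a, which drives Vegfa transcription in hypoxia, was at 4184 and 4245 and Epas1, its endothelial relative, at 4147 and 3641. The medians stand beside 0.005 over all genes tested. Leaving out single libraries moved them to between -0.02 (without 5L) and 0.04 (without 10N) for signaling, 0.016 (without 5L) and 0.20 (without 5N) for VEGF-induced genes and -0.08 (without 10N) and 0.04 (without 7N) for hypoxia regulators, so the sign of the first and the last was not stable.

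Of the 22 genes of receptor trafficking and negative regulation, 1 passed the threshold, beside 1.52% of all genes tested. This gene was Socs1, an inhibitor of JAK kinases that is induced by cytokines. It was at 10.48 in 5N, 19.2 in 6L, 19.9 in 6R and 45.3 in 10N, and at 2.44 in 5L, 4.76 in 7N, 13.6 in 8N and 12.6 in 9L. All treated libraries but 5N were above every control. The means were 23.7 ± 15.01 and 8.35 ± 5.58 (SD, n = 4 each), a ratio of 2.84 (unadjusted limma p = 0.0318, adjusted p = 0.9997; exact permutation p = 0.0857). The call was lost when any 1 of 6L, 6R, 10N, 5L or 7N was left out, and with voom, library quality weights or all genes, so that p ranged from 0.0186 to 0.277 over 19 alternatives. The value of 1 read was 2.44 in 5L and 2.38 in 7N, so the lowest values rest on 1 and 2 reads. The most abundant genes of this list, Cdh5 and Ptprb, the VE-PTP phosphatase that restrains VEGFR-2, were at 11917 and 11125 and at 4457 and 4111, and neither passed the threshold.

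Macrophage markers, led by Lyz2, Cd68 and Cd14, summed to 377 to 606 with agonistic CD40 mAb and 244 to 561 with the isotype control. Of the 11, 8 had positive and 3 negative log2 fold changes, with a median of 0.54 that was 0.07 without 8N and 0.34 to 0.77 without any other library. Only Mrc1 passed the threshold, at 39.0 ± 2.94 against 22.4 ± 7.46 (limma p = 0.0189, adjusted p = 0.9997; exact permutation p = 0.0286, the smallest it can give). Its groups did not overlap, as for 1.57% of all genes tested, and the call was lost without 8N and with scaling by blood endothelial markers. Over all genes tested, 1.52% passed the threshold. The number of macrophage markers past the threshold was 4 without 9L, 3 without 7N, 2 without 5N and 0 without 8N. It was 1 without any other library. Over all genes tested, 234 were past it higher and 52 lower without 9L, and 216 and 31 without 7N. These counts were 174 and 37 without 5N and 219 and 33 without 8N. Macrophages can make Vegfa, and the sort took CD45- cells. Ptprc was at a mean of 9.99 with agonistic CD40 mAb and 2.52 with the isotype control, below the limit for testing. The r of Vegfa with the macrophage marker sum was 0.41 (adjusted exact permutation p = 0.489). The part of macrophage RNA in the Vegfa values was not tested.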

How the data were processed

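RNA of TECs from 8 tumors was sequenced from TruSeq libraries. The deposited signal holds 1 normalized value per gene and library, made by the authors from reads aligned to mm10, assigned to genes in Partek and divided by DESeq2 size factors. The submitters' processing notes name CASAVA 1.8, Bowtie2 2.2.1, Partek 6.6 and DESeq2. A floor, an expression filter and a correction for harvest day, described in the methods, are not visible in the values. Of all values, 99.9% were whole multiples of 1 read within 0.1 reads, and the reads were recovered from these steps. PCR reads are not independent molecules, so depth speaks of counting error only.

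Values were tested as log2(value + 1) with limma 3.58.1 in R 4.3.3, moderated along the trend, with treatment as the only term, for genes with a larger group mean above 10, and p was adjusted by Benjamini-Hochberg over all genes tested. The 8 libraries carry 8 different labels, and each tumor was taken to come from its own mouse. Single values were compared by two-sided exact permutation tests over the 70 ways to divide the 8 libraries, and relations over all pairings of libraries. Relations with marker sums were added after values had been seen. Alternatives were pseudocounts of 0.1 and 10, other filters and scalings, leaving out each library, library quality weights, and count models on the recovered reads (DESeq2 1.42.0, edgeR 4.0.16 and voom). edgeR called 150 genes higher and 47 lower. Positions and lengths are from GENCODE M21 (mm10) and promoters from RefSeq. The 8 genes and the lists were chosen with earlier results of these data known. Named genes are the members, in each list the genes past the threshold and the 2 most abundant (3 for markers), and the 3 most like Kdr, Flt1, Nrp1 and Vegfa.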

Additional observations from a re-analysis of the deposited data

Results flagged for a closer look

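In 4 of 40 groups of 4 libraries examined, 1 library stood far from the other 3, by the gap to its neighbour divided by the whole range. Chance alone gives about 1 such group in 20. For Vegfc in the isotype control this share was 0.843, with 5L low at 171 against 272 to 290. For the log2 ratio Vegfa/Kdr in the isotype control it was 0.912, and for Vegfa/Cdh5 0.860, both with 7N high (0.396 and 0.238). For the log2 ratio Flt1/Cdh5 with agonistic CD40 mAb it was 0.873, with 5N high at 0.488 against 0.413 to 0.422. The libraries 7N and 5L have the fewest reads, and 5N the most.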

How the results depend on the processing

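The number of members past the threshold was 0 under all 20 alternatives, among them edgeR, DESeq2 and voom on the recovered reads, and so was the number with an unadjusted p of at most 0.05. Differences this close to 0 changed sign easily, and no sign was a call. With library quality weights the log2 fold change was 0.0049 for Vegfa, -0.023 for Vegfc, -0.037 for Kdr, -0.0023 for Flt1 and -0.050 for Nrp1. Scaling by blood endothelial markers, which moved the median of all genes to -0.15, gave -0.042 for Vegfc, -0.0025 for Pgf, -0.096 for Flt1 and -0.024 for Nrp1. Kdr was then at 0.080, and Vegfa at -0.18, Nrp2 at -0.17 and Vegfb at -0.42 were below that median. Leaving out 1 library at a time gave -0.14 to 0.14 for Vegfa, -0.064 to 0.21 for Vegfc, -0.16 to 0.36 for Pgf, -0.036 to 0.14 for Flt1, -0.046 to 0.24 for Nrp1 and -0.077 to 0.031 for Nrp2; Vegfb stayed negative in all 20 alternatives. The lowest of these for Vegfc, Pgf, Flt1 and Nrp1 came from leaving out 5L.

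Over all genes, the count of higher genes rose from 166 to 297 without the expression filter, where more genes were tested. The count of lower genes was 31, and it was 88 without the filter, 13 with a limit of 50, 63 after quantile normalization, 50 with endothelial scaling, 57 without the trend, 70 with quality weights, 47 with edgeR, 58 with DESeq2 and 91 with voom. Leaving out single libraries gave 27 to 123, the latter without 5L, and 52 without 9L. The cause was not tested. No paired analysis was possible because the groups share fewer than 2 numbers in their library labels. The labels 5N and 5L, of different groups, and 6L and 6R, both treated, share a number, and no label says what it marks. In the shallowest controls, 5L and 7N, 1 read was worth 2.44 and 2.38 normalized reads, which bears on low genes such as Socs1.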
